A study of Gallus gallus with 12 samples.

Results

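HTC cells, a chicken macrophage line, were kept with Eimeria maxima for 4, 18 or 48 h, and their RNA was set against that of unstimulated HTC cells and against each other. The data described here are the 4 arrays, of 12 in the series, whose titles name E. maxima. A spotted array carries cDNA clones, and each array reports, for every spot, the log ratio of 2 RNA samples labelled with different dyes. The 4 arrays paired control with 48 h, 48 h with 18 h, 18 h with 4 h and 4 h with control, so that they form a closed loop in which each RNA was labelled once with Alexa555 and once with Alexa647. There was 1 RNA sample for each time. No unstimulated culture of matching age is named in the labels, so the effect of the parasite and that of the hours in culture cannot be told apart. The labels give no parasite dose, stage or preparation for E. maxima. The other 8 arrays form a loop of the same pairs for E. tenella and for E. acervulina, with the dyes of each pair swapped. Of 2253 gene symbols on the array, the 2246 with a value on all 4 E. maxima arrays were kept, and 7 were left out.

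Macrophages take up and kill microbes, and they answer them with chemokines that draw in other leukocytes, with reactive oxygen made by the NADPH oxidase, and with a shift in sugar and lipid use. Eimeria species are protozoa that multiply inside the gut lining of chickens and cause coccidiosis, and macrophages are among the leukocytes of the infected gut. E. maxima lives mainly in the middle part of the small intestine.

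The level of each gene at 4, 18 and 48 h was solved from the 4 ratios by least squares and is given as a log2 change from the unstimulated RNA. The direction is a likely reading only: the ratios were read as Alexa555 over Alexa647 because the sample titles name the Alexa555 sample first, a choice made with earlier results of these data known. If the ratios run the other way, all signs turn and higher becomes lower. The values were taken as log2, since sizes above 8 are unlikely for log10 ratios. The sources used here do not state the base. Because the arrays hold ratios and no levels, the macrophage identity of the cells could not be checked against marker levels.

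Going round a closed loop, the 4 log ratios of a gene should sum to 0. Their sum had a median of 0.26 over the 2246 genes, and its robust spread gave an error of 0.28 for 1 array. The ordinary standard deviation of the sum gave 0.40 instead. The 0.28 was used for every gene, also for those with a large loop sum. From this, the standard error of a change was 0.24 at 4 h and 48 h, which have an array of their own against the control, and 0.28 at 18 h, which has none. The loop sum also holds any constant dye effect of a gene, which cancels in the solved changes. These errors thus include a part that the changes do not carry. They cover the arrays and the spots, not the spread between cultures, which 1 RNA per time leaves unmeasured. Each change can also be read along either way round the loop, and these 2 paths share no array. A gene was called higher or lower when its least squares change was at least 1 on the log2 scale, which is 2-fold, and both paths had the same sign. With gene-specific dye effects present in the ratios, the paths had the same sign for 56.4% of genes at 4 h, 53.2% at 18 h and 64.4% at 48 h. With a dye effect taken from the other 2 loops subtracted, these shares were 72.3%, 71.4% and 77.3%, and the error of 1 array was 0.15.

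**Figure D1:**
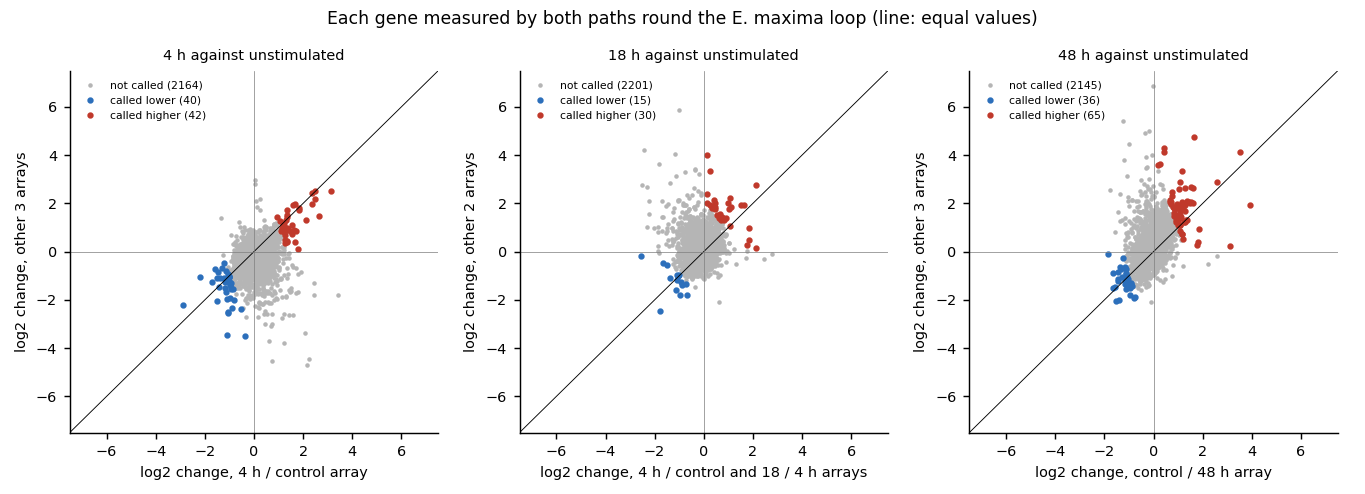
The change of each of the 2246 genes along both paths round the E. maxima loop at 4, 18 and 48 h, with the path through the fewest or first arrays on the x axis and the path through the remaining arrays on the y axis, both as log2 changes. Red points are the genes called higher (42, 30 and 65), blue points those called lower (40, 15 and 36), and the called genes lie in the quadrants where both paths have the same sign.

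At 4 h, 82 genes (3.65% of 2246) were called, 42 higher (1.87%) and 40 lower (1.78%). At 18 h the count was 45 (2%), with 30 higher (1.34%) and 15 lower (0.668%). At 48 h it was 101 (4.5%), with 65 higher (2.89%) and 36 lower (1.6%). Centring each array on its median left these counts at 80, 47 and 105 but moved the split at 4 h to 51 higher and 29 lower, at 18 h to 33 and 14, and at 48 h to 73 and 32. The 48 h over 18 h array bears on the later counts: with its sign turned, 117, 169 and 38 genes were called at 4, 18 and 48 h. The spread of the loop sum was 0.56 with the sign as labelled and 0.51 with it turned, and, once the dye effect of the other loops had been subtracted, 0.30 as labelled and 0.48 turned.

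In all, 173 genes (7.7%) were called at 1 time or more, and 0 were called in opposite directions at different times. All 3 changes are taken from the same unstimulated RNA on the same 4 arrays. An unusual value of that RNA would shift them together, which bears on calls shared between times here and below. The most common profiles were a call at a single time: 35 genes were higher at 4 h only, 24 lower at 4 h only, 40 higher at 48 h only and 22 lower at 48 h only. A further 19 genes were higher at both 18 and 48 h. Calls at all 3 times were few, with 4 genes higher (FABP4, CROT, LARP4B and RC3H1) and 6 lower (TNFRSF10B, LBP, DBI, TK1, ALOX5AP and CTDSPL).

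The genes called at 1 time were then followed across the others. The 42 genes higher at 4 h had a median change of 1.30 at that time, 0.30 at 18 h and 0.43 at 48 h, and 5 of them were called higher at 18 h. The 40 genes lower at 4 h had medians of -1.15, -0.68 and -0.75, with 11 called lower at 18 h and 11 at 48 h. The 65 genes higher at 48 h had medians of 0.51 at 4 h and 0.84 at 18 h before 1.19 at 48 h, and 23 of the 30 genes higher at 18 h were among them. Genes chosen for a call at one time tend to have a more extreme value there by that choice, so these medians and counts are a description, and the courses of the high and low genes were not tested against each other.

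**Figure D2:**
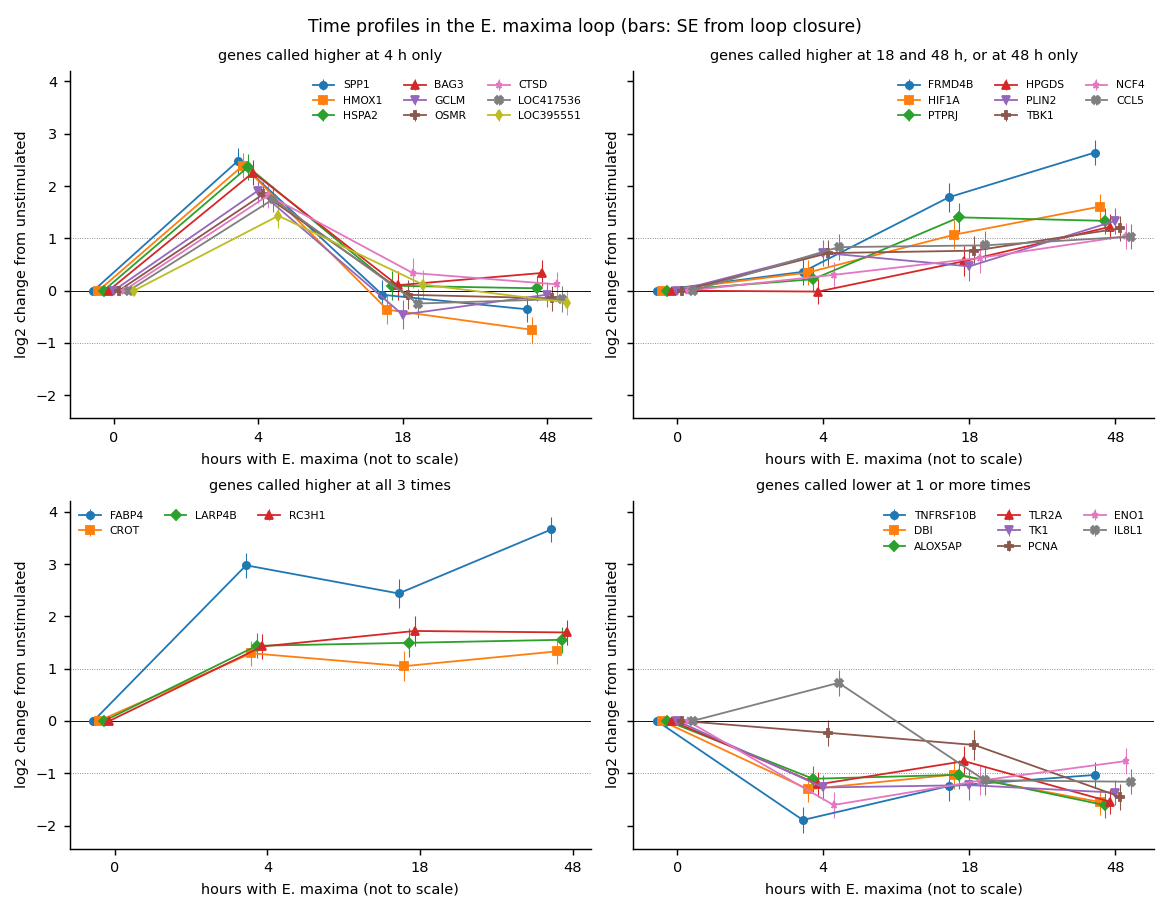
Log2 change from the unstimulated RNA at 0, 4, 18 and 48 h for named genes in 4 groups, each point the least squares value from the 4 arrays. Each bar is the standard error from loop closure, dye effects included (0.24 at 4 and 48 h, 0.28 at 18 h). Genes such as HMOX1 and SPP1 stand near 2.4 at 4 h and near or below 0 afterwards, while FRMD4B and HIF1A are highest at 48 h and FABP4 stays above 2 at all 3 times.

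Some of the largest changes at 4 h were in single genes of oxidative defence and of protein folding. HMOX1, heme oxygenase 1, which breaks down heme, had a log2 ratio of 2.47 on the 4 h over control array, -2.68 on the 18 h over 4 h array, -0.31 on the 48 h over 18 h array and 0.82 on the control over 48 h array. Both arrays that hold the 4 h RNA thus put it far above its neighbours in time, and the solved changes were 2.39 at 4 h, -0.37 at 18 h and -0.75 at 48 h. Its 2 clones gave 2.31 and 2.47 at 4 h. GCLM, the modifier subunit of the enzyme that starts glutathione synthesis, read 2.11, -2.17, 0.58 and 0.28 on the same arrays in that order, with changes of 1.91, -0.46 and -0.08. TXNRD1, thioredoxin reductase 1, was 1.31 at 4 h, 0.24 at 18 h and -0.31 at 48 h. These 3 were the genes called at 4 h among the 20 measured of a list of oxidative and nitrosative defence, all higher, where 1.87% of all genes were called higher. The list as a whole had a median of -0.17 at 4 h, against -0.05 over all genes, 8 of 20 were above 0, and peroxiredoxin PRDX1 (-0.57) and the ferritin heavy chain FTH1 (-0.38) lay below 0.

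HSPA2, a 70 kDa heat shock chaperone, gave 2.35 on the 4 h over control array and -2.29 on the 18 h over 4 h array, but -0.07 and -0.06 on the arrays without the 4 h RNA. Its change was 2.36 at 4 h and close to 0 at 18 h (0.09) and 48 h (0.04). BAG3, a co-chaperone of the same family of chaperones, had ratios of 2.35, -2.06, 0.33 and -0.24 and changes of 2.26, 0.10 and 0.34. Of 16 measured heat shock genes these 2 were called at any time (12.5%, against 7.7% of all genes), and both at 4 h. HSPA8 (0.81), HSP90AA1 (0.84) and CCT4 (0.87) stayed under the threshold at 4 h, HSPE1 was -0.92, and the list median was 0.15. Of 22 measured genes of endoplasmic reticulum folding, 2 were called higher and 1 lower at 4 h (1.87% and 1.78% of all genes), with a median of 0.13. These were the chaperones HSPA5 (1.04 at 4 h) and HSP90B1 (1.06), and SPCS3, a signal peptidase subunit (-1.70). HSP90B1 and SPCS3 had only 1 spot on an array. The SPCS3 spots on the 18 h over 4 h array ran from -1.49 to 3.82.

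SPP1 and OSMR were also high in the 4 h RNA alone. SPP1, osteopontin, a secreted protein of activated macrophages, read 2.47 on 4 h over control, -2.57 on 18 h over 4 h, -0.29 on 48 h over 18 h and 0.34 on control over 48 h. The 4 h RNA stood out on both arrays that hold it, with changes of 2.48, -0.08 and -0.36, and its 3 clones lay between 2.40 and 2.60 at 4 h. OSMR, the oncostatin M receptor, had ratios of 1.85, -1.92, -0.06 and 0.15 and changes of 1.84, -0.08 and -0.15. It was the only gene called higher at any time among 24 measured cytokines and receptors. Of these 24, 2 were called at 1 time or more (8.33%, against 7.7% of all genes). IL1B (0.10, -0.24 and -0.33) and IL6 (-0.38, -0.45 and -0.36) were not called, and IL1R2, the decoy receptor of interleukin 1, was called lower at 48 h (-1.09), with clones at -1.72 and -0.46. MMP1, a collagenase, was 1.36 at 4 h and 0.09 at 18 h, and the integrin subunit ITGB5 was 1.24 and -0.08. The loop closed poorly for MMP1, whose path through the other arrays at 4 h lay far below that of its 4 h over control array.

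Among 11 measured chemokines and receptors, 5 were called at 1 time or more (45.5%, against 7.7% of all genes). LOC417536, annotated as a CC chemokine (CCLi9), had ratios of 1.67, -2.07, 0.01 and 0.08 and changes of 1.75, -0.25 and -0.16. LOC395551, annotated as a CCL4-like chemokine, was 1.43, 0.12 and -0.23. The separate symbol CCL4 was 0.33 at 4 h, and CCL20 was 0.66, neither of them called. IL8L1, a CXC chemokine related to interleukin 8, followed another course: its ratios of 0.71, -1.88, -0.05 and 1.15 gave 0.73 at 4 h, -1.13 at 18 h and -1.16 at 48 h. Its 2 clones lay at 0.58 and 0.88 for 4 h, and -1.29 and -1.04 for 48 h. CCL5 passed the threshold at 48 h alone (0.83, 0.87 and 1.03), and CKLF was lower at 4 h (-1.21). The loop sum of CCL5 was 1.23, so that its paths gave 0.72 and 1.96 at 48 h. The chemokine list had a median of 0.33 at 4 h, -0.09 at 18 h and -0.16 at 48 h.

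Of 35 measured lysosome and phagosome genes, 3 were called higher at 4 h and 0 lower (1.87% and 1.78% of all genes). CTSD, cathepsin D, read 1.85 on 4 h over control and -1.46 on 18 h over 4 h, with changes of 1.82, 0.34 and 0.12. CTSC (1.17 at 4 h) and CTSK (1.12), further cathepsins, were called as well. In the limma test against array error described below, CTSK had an adjusted p of 0.0558 at 4 h. Other lysosomal proteases were not called, among them CTSA (-0.01), CTSH (-0.31), CTSZ (-0.28), CTSB (0.51) and LGMN (0.57). The list median at 4 h was 0.04. ATP6V0D2, part of the V-ATPase, which acidifies lysosomes, solved to 2.11 at 4 h but was not called: its own array gave 3.42, the other path gave -1.80, and the loop sum was 5.21. C1QC, a complement component made by macrophages, was 1.06 at 4 h and failed the path rule as well (1.44 and -0.07). ETS1, a transcription factor, was called at 4 h (1.67), but its 2 clones gave 0.74 and 2.50.

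Lipid genes held the largest sustained change. FABP4, a carrier of fatty acids inside macrophages and fat cells, had ratios of 3.14 on 4 h over control, -0.38 on 18 h over 4 h, 1.38 on 48 h over 18 h and -3.50 on control over 48 h. Both arrays that hold the control put it far below the stimulated RNA, and the solved changes were 2.98, 2.44 and 3.66. Its spots on the 4 h over control array ran from 2.31 to 4.45, and those on the control over 48 h array were -3.52 and -3.48. CROT, a peroxisomal enzyme that hands medium-chain fatty acids to carnitine, was 1.29, 1.05 and 1.33, with a loop sum of -0.01. PLIN2, which coats lipid droplets, was called at 48 h (0.72, 0.46 and 1.33), as were HPGDS, a prostaglandin D synthase (-0.02, 0.56 and 1.22), and HMGCS1, of cholesterol synthesis (0.59, 0.46 and 1.04).

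The same list held genes that were lower throughout. ALOX5AP, which presents arachidonic acid to 5-lipoxygenase for leukotriene synthesis, read -1.07, 0.11, -0.55 and 1.65 on the 4 arrays in the order used above. That placed it below the control at every time, at -1.11, -1.03 and -1.61, and its 2 clones lay at -1.78 and -1.48 at 48 h. LTA4H, which makes leukotriene B4, was called lower at 48 h only (0.15, -0.37 and -1.08). DBI, an acyl-CoA binding protein, read -1.46, 0.13, -0.68 and 1.40 and solved to -1.31, -1.03 and -1.55. Of 24 measured genes of lipid handling and eicosanoids, 10 were called at 1 time or more (41.7%, against 7.7% of all genes): 3 higher and 3 lower at 4 h, 2 higher and 2 lower at 18 h, then 5 higher and 3 lower at 48 h, while the medians stayed at -0.08, -0.07 and -0.08. PTGS2, the inducible cyclooxygenase, was 0.18, 0.24 and 0.42, and ALOX5 was -0.46, -0.34 and -0.56.

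FRMD4B and HIF1A were among the genes called higher at 18 and 48 h. HIF1A, the oxygen-regulated transcription factor, had ratios of 0.48 on 4 h over control, 0.85 on 18 h over 4 h, 0.67 on 48 h over 18 h and -1.48 on control over 48 h. Each step in time was positive, and the changes were 0.35, 1.07 and 1.61, with clones at 1.33 and 1.86 at 48 h. FRMD4B, a scaffold protein of the cell cortex, had its most extreme ratio on control over 48 h (-2.57), and solved to 0.36, 1.79 and 2.64, with clones at 1.92 and 3.67 at 48 h. PTPRJ, a receptor tyrosine phosphatase, reached its level by 18 h (0.22, 1.40 and 1.33). RASGRP1, an activator of Ras, was 0.51, 0.84 and 1.70, with a loop sum of 2.20. NCF4, a cytosolic subunit of the NADPH oxidase, was 0.30, 0.63 and 1.04, while the membrane subunit CYBB was -0.50, -0.65 and -1.38 with clones at -2.01 and -0.37 at 48 h.

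Of 11 measured genes of autophagy and nutrient sensing, 3 were called at 1 time or more (27.3%, against 7.7% of all genes). Higher were 2 at 18 h and 2 at 48 h, against 1.34% and 2.89% of all genes. At any time 0 were lower, and 10 of 11 were above 0 at 48 h. The median was 0.31 at 4 h, 0.34 at 18 h and 0.58 at 48 h, against -0.00 over all genes at 48 h. RB1CC1, part of the complex that starts autophagosome formation, was 0.44, 0.94 and 1.38. RICTOR, a subunit of mTOR complex 2, was 0.46, 1.08 and 0.998. SESN1, a stress-induced sestrin, was 0.52, 1.80 and 2.43, but its loop sum was 3.12, so that its paths gave 1.65 and 4.77 at 48 h. TBK1, a kinase of innate signalling, was 0.72, 0.76 and 1.19. RC3H1, an mRNA decay factor, was called at all 3 times (1.42, 1.72 and 1.69) with 1 spot on an array, and the RNA-binding protein LARP4B (1.44, 1.49 and 1.55) had a spot error of 0.88 at 48 h.

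Of 24 measured genes of glycolysis and hypoxia, 4 were called lower at 4 h and 0 higher (1.78% and 1.87% of all genes): ENO1, PGAM1, GBE1 and BNIP3. ENO1, the glycolytic enzyme enolase 1, read -1.73 on 4 h over control, 0.35 on 18 h over 4 h, 0.26 on 48 h over 18 h and 0.65 on control over 48 h. It was thus lowest in the 4 h RNA and nearer to the control later, at -1.61, -1.14 and -0.77. PGAM1, phosphoglycerate mutase, also of glycolysis, was -1.14, -0.78 and -0.54. GBE1, which builds branches into glycogen, was -1.26, -0.34 and -0.80, although its paths at 4 h lay far apart. BNIP3, a hypoxia-induced mitochondrial protein, was -1.05. In the list, 20 of 24 lay below 0 at 4 h, and the median was -0.42 against -0.05 over all genes. At 48 h, 0 were lower and HIF1A alone was higher, with a median of -0.22. GAPDH was -0.64, -0.72 and -0.54, and LDHA was -0.42, -0.39 and -0.47, neither of them called.

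Of 16 measured apoptosis genes, 4 were called lower at 4 h and 0 higher, against 1.78% and 1.87% of all genes. TNFRSF10B, a receptor for the death ligand TRAIL, read -2.18, 0.36, -0.07 and 0.75 and solved to -1.89, -1.24 and -1.03. FAS, another death receptor, was lower at 4 h (-1.44) and back at 0.08 and 0.06, although its paths at 4 h gave -1.07 and -2.54. PDCD4 was -1.18, -0.44 and -1.07. BNIP3 was the fourth, the soluble decoy receptor TNFRSF6B was -0.02, -0.02 and 0.02, and the list median at 4 h was -0.11. Among replication genes, TK1, thymidine kinase 1, was -1.27, -1.23 and -1.37, and PCNA, the sliding clamp of DNA polymerase, was -0.23, -0.46 and -1.45. PCNA had ratios of -0.04, -0.04, -0.80 and 1.64, so both arrays that hold the 48 h RNA put it low there. Of 18 measured cell cycle genes, 2 were lower at 4 h, 1 at 18 h and 3 at 48 h, and 0 were higher at any time. In all, 3 of the 18 were called at 1 time or more (16.7%, against 7.7% of all genes), and CCNA2, a cyclin, was -0.17, -0.06 and -0.05.

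The genes of the Toll-like receptor pathway that were called were lower, with 1 exception. TLR2A, a receptor for bacterial lipoproteins, read -1.19, 0.47, -0.75 and 1.57 and solved to -1.21, -0.77 and -1.55. TNIP3, an inhibitor of NF-kB signalling, was -1.12, -1.05 and -0.57, and NFKBIA, which holds NF-kB in the cytosol, was -0.24, -1.04 and -0.93 with 1 spot on an array. TBK1 was the exception. Of 25 measured genes of the pathway, 4 were called at 1 time or more (16%, against 7.7% of all genes). Lower were 2 at 4 h, 2 at 18 h and 1 at 48 h, against 1.78%, 0.668% and 1.6% of all genes. The medians were 0.05, -0.03 and -0.00, and 13, 11 and 12 of the 25 lay above 0. TRAF5, of the same list, solved to 1.51 at 4 h and 1.53 at 18 h but failed the path rule. LBP, which binds bacterial lipopolysaccharide, was lower at all 3 times (-1.38, -1.39 and -1.16). AVD, avidin, a biotin-binding protein, was -0.26, -1.36 and -1.66.

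Of all genes 7.7% were called at any time, which for most of the following lists comes to very few genes. The lists with no called member were 16 interferon response genes, 10 antigen presentation genes, 17 immediate early and stress genes, 54 cytosolic ribosomal proteins and 21 proteasome and ubiquitin genes. Their members ran from -0.51 to 0.51 at 4 h for the interferon list and from -0.62 to 0.25 for the ribosomal proteins. Among the ribosomal proteins 17 of 54 were above 0 at 4 h and 26 at 48 h, with medians of -0.14 and -0.01. MX1, an interferon-induced antiviral protein, was -0.32, -0.20 and -0.13. NOS2, the inducible nitric oxide synthase of activated macrophages, was 0.46, 0.02 and 0.33 and was not called, and its clones gave -0.19 and 1.11 at 4 h. Of 18 measured markers of B cells, T cells, heterophils, erythroid cells, thrombocytes, fibroblasts and epithelial cells, only CD3D, of the T cell receptor complex, was called (0.09, -0.51 and -1.29). As these are ratios, the markers' levels are not known.

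**Figure D3:**
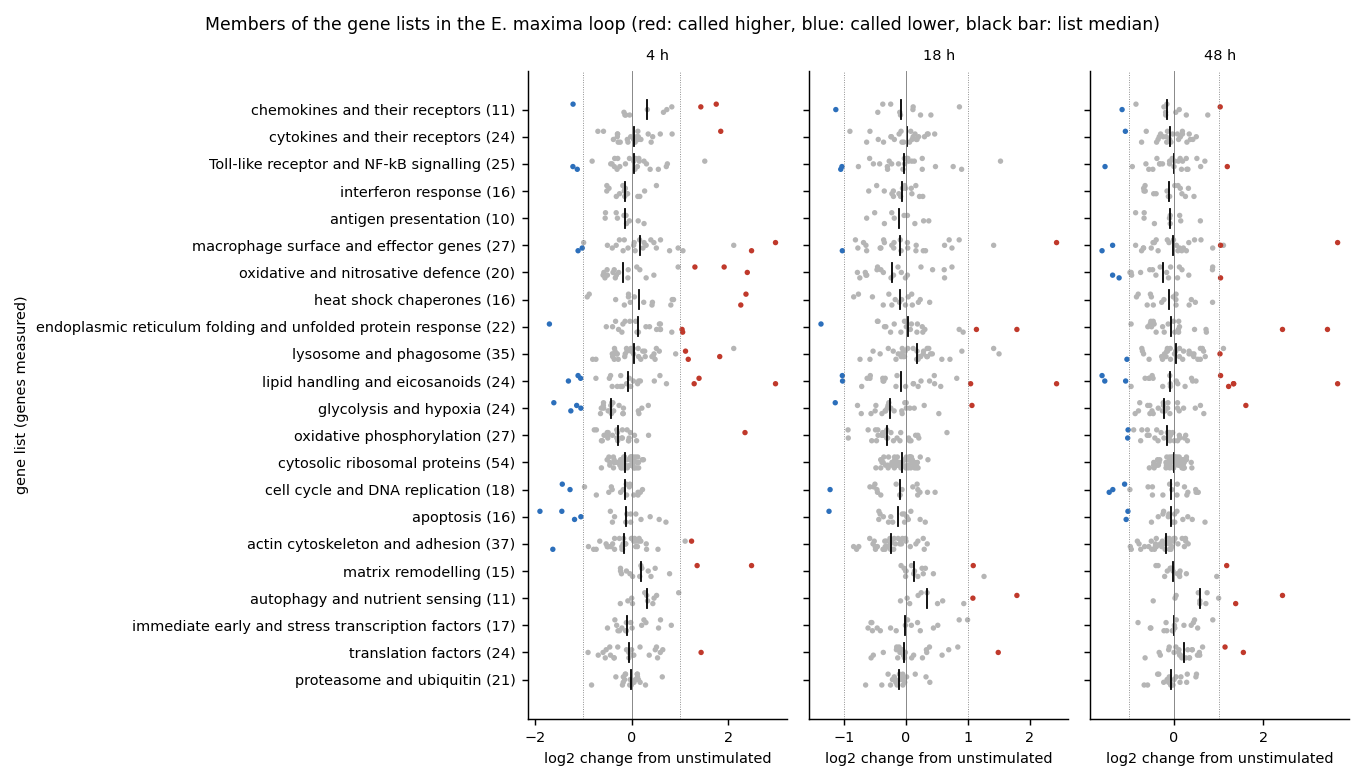
Log2 change from unstimulated (x axis) at 4, 18 and 48 h for every measured member of 22 gene lists (rows, with the number of genes measured), red where called higher, blue where called lower, with a black bar at the list median. The ribosomal proteins lie between -0.62 and 0.40 over the 3 times, and the lipid list holds called genes on both sides of 0 at each time.

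Some of the largest solved changes rest on very few spots. Each clone was spotted 3 times, and the median standard deviation over 3 spots ran from 0.15 to 0.17 on the 4 arrays. XBP1, which switches on genes of the unfolded protein response, solved to 0.59, 1.14 and 3.43, but it had a single spot (-3.93) on the control over 48 h array and spots at 3.59 and 0.01 on the 48 h over 18 h array. RBP4A, a retinol binding protein, solved to -2.72 at 4 h from spots at -0.70 and -5.07 on the 4 h over control array. PDGFA, a growth factor, solved to 2.40 at 48 h from spots at 0.18 and -6.43 on the control over 48 h array. COX4I1, a subunit of cytochrome c oxidase, solved to 2.34 at 4 h with a single spot on the 4 h over control array.

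For these genes the spots differ among themselves by more than the change. For HMOX1, SPP1 and HSPA2 the error carried over from the spots was 0.06, 0.08 and 0.05 at 4 h. Among the called genes, 12 of 82 at 4 h, 11 of 45 at 18 h and 14 of 101 at 48 h had only 1 spot on at least 1 array. A further 3, 5 and 7 had a change under 2 times the error from their spots. In a rule added after the data were seen, which asks for 2 or more spots on each array and a change of at least 2 times that error, 67 genes remained at 4 h (36 higher, 31 lower), 29 at 18 h (18 and 11) and 80 at 48 h (49 and 31). Of the genes described above, RC3H1, NFKBIA, HSP90B1 and SPCS3 had a single spot on an array, and LARP4B missed the added rule at 48 h.

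**Figure D4:**
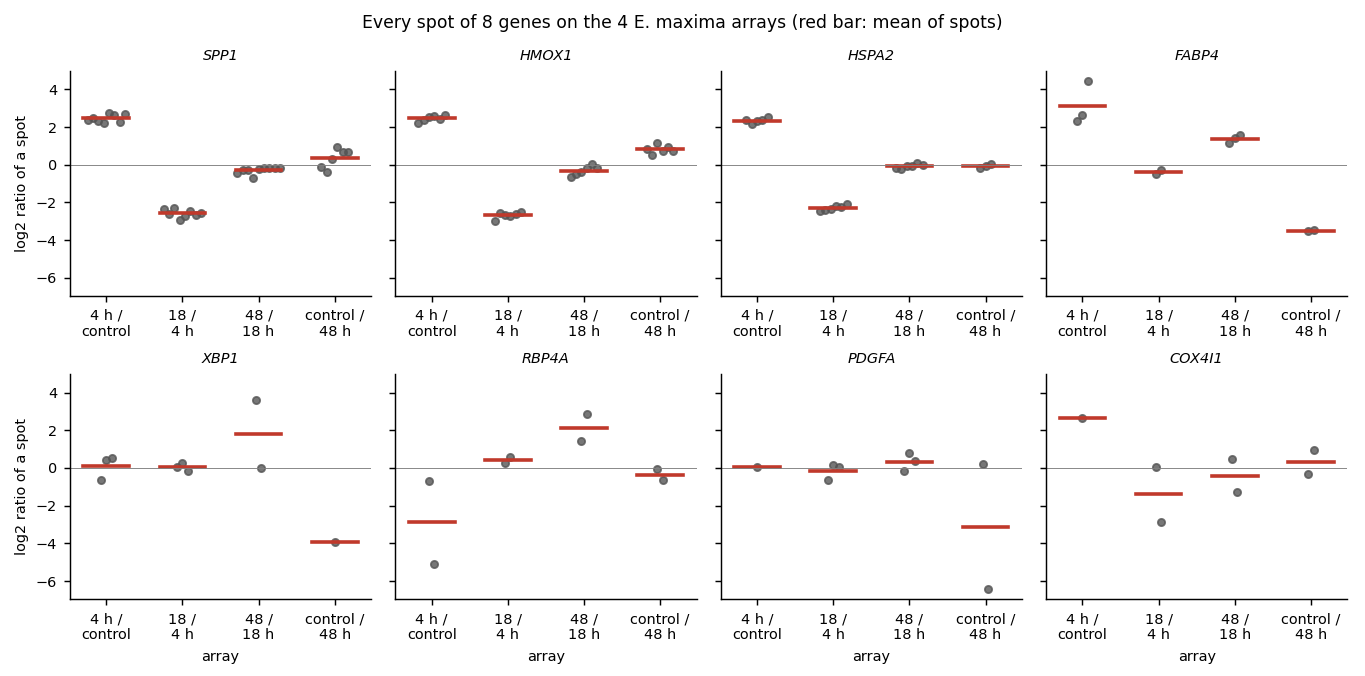
The log2 ratio of every spot (grey points) of 8 genes on the 4 E. maxima arrays, with the mean of the spots as a red bar. The spots of SPP1, HMOX1 and HSPA2 lie close together, while RBP4A, PDGFA and XBP1 each have an array whose spots lie more than 3 log2 units apart.

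Between the stimulated times, more genes were called from 4 to 18 h than from 18 to 48 h. The 2 paths agreed poorly for these contrasts. They had the same sign for 49.7% of genes from 4 to 18 h, 41.5% from 18 to 48 h and 54.5% from 4 to 48 h. With the dye effect of the other loops subtracted, the shares were 67.4%, 62.6% and 71.0%. From 4 to 18 h, 50 genes (2.23%) were called, 19 higher (0.846%) and 31 lower (1.38%). The lowest were HMOX1 (-2.76), SPP1 (-2.56), GCLM (-2.37), HSPA2 (-2.27) and BAG3 (-2.15), all of them genes called higher at 4 h. FAS (1.52) and GPR146 (1.47) were among the highest. From 18 to 48 h, 6 genes (0.267%) were called, all higher: ITGA11, RBP4A, XBP1, FABP4, PDGFA and ABCE1. ITGA11, XBP1, PDGFA and ABCE1 had a single spot on at least 1 array, and the spots of RBP4A are given above. FABP4 was 1.22, and with the 48 h over 18 h array turned it was -0.85. From 4 to 48 h, 83 genes (3.7%) were called, 48 higher (2.14%) and 35 lower (1.56%), with TPD52 (2.18) and FRMD4B (2.28) among the highest and HMOX1 (-3.14) the lowest.

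A limma fit to all 12 arrays, with 9 coefficients for the RNA samples and a dye term, gave a test of these changes against array error. It had 2 residual degrees of freedom and compares the RNA samples with each other, not the conditions. Its features were the named genes and the single rows with no gene symbol, so a clone without a symbol may count more than once. At 4 h, 137 of 3700 features (3.7%) passed an adjusted p of 0.05 and the fold, 77 of them named genes (41 higher, 36 lower). At 48 h, 160 features (4.32%) passed, 95 of them named (60 higher, 35 lower). At 18 h, 0 passed (0%) with a lowest adjusted p of 0.0749, although 1069 features had an unadjusted p under 0.05. At 4 h, the adjusted p was passed by 39 of 42 tested genes called higher by the path rule and 36 of 39 called lower. At 48 h it was passed by 60 of 65 and 35 of 35. Over all 3700 features, 678 passed the adjusted p at 4 h and 928 at 48 h. The called genes were picked by their size on these same arrays, so their passing follows in part from that choice. The limma adjusted p was 0.0109 for HMOX1, SPP1 and HSPA2 at 4 h and 0.0161 for FABP4, HIF1A and ALOX5AP at 48 h. A fit to the 4 E. maxima arrays alone, with no dye term, passed 0 features at each time, with 335, 131 and 408 at an unadjusted p under 0.05.

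The same genes were then set beside the loops of the other species, each with its own 4 arrays. In those loops the dyes of each pair were swapped relative to E. maxima. A constant dye effect cancels within a loop, but any other effect of dye orientation cannot be told apart from species. Whether the unstimulated RNA was 1 shared sample or 3 is not stated in the sources used here. SPP1 was 2.48 at 4 h with E. maxima, 2.42 with E. tenella and 2.31 with E. acervulina. HSPA2 was 2.36, -1.42 and 1.25 at 4 h in that order and 0.04, 2.26 and 0.80 at 48 h. HMOX1 was 2.39, -0.02 and 1.28 at 4 h and -0.75, 0.999 and -0.29 at 48 h, and BAG3 was 2.26, -0.36 and 1.11 and then 0.34, 1.20 and 0.72. These 3 stress genes thus stood highest at 4 h with E. maxima and at 48 h with E. tenella. They were picked for large E. maxima changes at 4 h, so their standing at 4 h follows in part from that choice. Of the folding genes called higher at 4 h, HSPA5 was highest with E. maxima at that time (1.04, 0.79 and 0.69). HSP90B1 was highest with E. acervulina (1.06, 0.80 and 1.75). Of the oxidative defence genes called with HMOX1 at 4 h, TXNRD1 was also highest with E. maxima at 4 h and with E. tenella at 48 h (1.31, 0.05 and 0.85, then -0.31, 1.41 and -0.37). GCLM differed, as it was highest with E. tenella at both times (1.91, 2.56 and 1.20, then -0.08, 3.22 and -0.22). IL8L1 was -1.16 at 48 h with E. maxima, 3.62 with E. tenella and -0.83 with E. acervulina. FABP4 was above 0 at every time in all loops, and at 48 h it was 3.66, 0.77 and 2.51. CROT was 1.33, 0.70 and 0.63 at 48 h, and NBL1, a secreted inhibitor of bone morphogenetic proteins, was 1.62, -0.03 and -0.07, with a spot error of 0.58.

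Of the 42 genes higher at 4 h with E. maxima, 12 were past the fold the same way in the E. tenella loop, 20 in the E. acervulina loop, 6 in both and 16 in neither. Over all 2238 genes measured in the 3 loops, 1.03% and 2.41% were past it in these loops and 96.9% in neither. Of 39 lower genes with values in both, 7 and 10 were past it and 25 in neither, against 0.715%, 1.97% and 97.5% of all genes.

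At 18 h, 8 and 4 of the 30 higher genes were past the fold and 21 in neither (1.34%, 1.43% and 97.7% of all genes), as were 3 and 1 of the 15 lower genes, with 11 in neither (0.804%, 0.894% and 98.5%). Of the 65 higher at 48 h, 9 and 5 were past it, 0 in both and 51 in neither, against 1.92%, 0.581%, 0% and 97.5% of all genes. Of 35 lower genes at 48 h with values in both, 5 and 1 were past it and 29 in neither, against 1.16%, 0.357% and 98.6%. The genes were picked by their E. maxima values, so a smaller value elsewhere follows in part from that choice, and these counts are a description.

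The difference itself was tested with limma as the E. maxima change, averaged over 4, 18 and 48 h, minus the mean of the other species, with 5 residual degrees of freedom. Of 3700 features 0 passed an adjusted p of 0.05 (0%), 138 had an unadjusted p under 0.05, and the lowest adjusted p was 0.296. The median 95% interval, not adjusted for the number of features, reached 0.56 to either side, so smaller differences were not detectable for a typical gene. Larger differences, such as those named next, failed the adjusted p as well, so the test does not exclude them. The named genes with the lowest p were GLYCTK (0.81 ± 0.47 as difference and 95% limit to either side), RC3H1 (1.46 ± 0.85), CTBS (1.499 ± 0.88), ZMYM4 (0.77 ± 0.48), NBL1 (1.26 ± 0.79) and TRAF5 (1.29 ± 0.83), each with an adjusted p of 0.835. CTBS had a loop sum of 3.44 and 1 spot on an array, and failed the path rule at 18 h (-0.21 and 3.22). ZMYM4 failed it at 4 h (1.40 and -0.08), and TRAF5 at 4 and 18 h. Tested one time at a time, in an alternative added after the data were seen, 1 feature (0.027%), a row with no gene name, passed at 4 h, 0 at 18 h and 0 at 48 h, where 133, 215 and 206 features had an unadjusted p under 0.05. HSPA2, HMOX1, BAG3 and IL8L1 did not pass it at any time, nor did the named genes with the lowest limma adjusted p, RBP4A at 4 h (-2.81, 0.123) and XBP1 (3.16), TUBGCP3 (1.72) and NBL1 (1.67) at 48 h, each at 0.126.

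**Figure D5:**
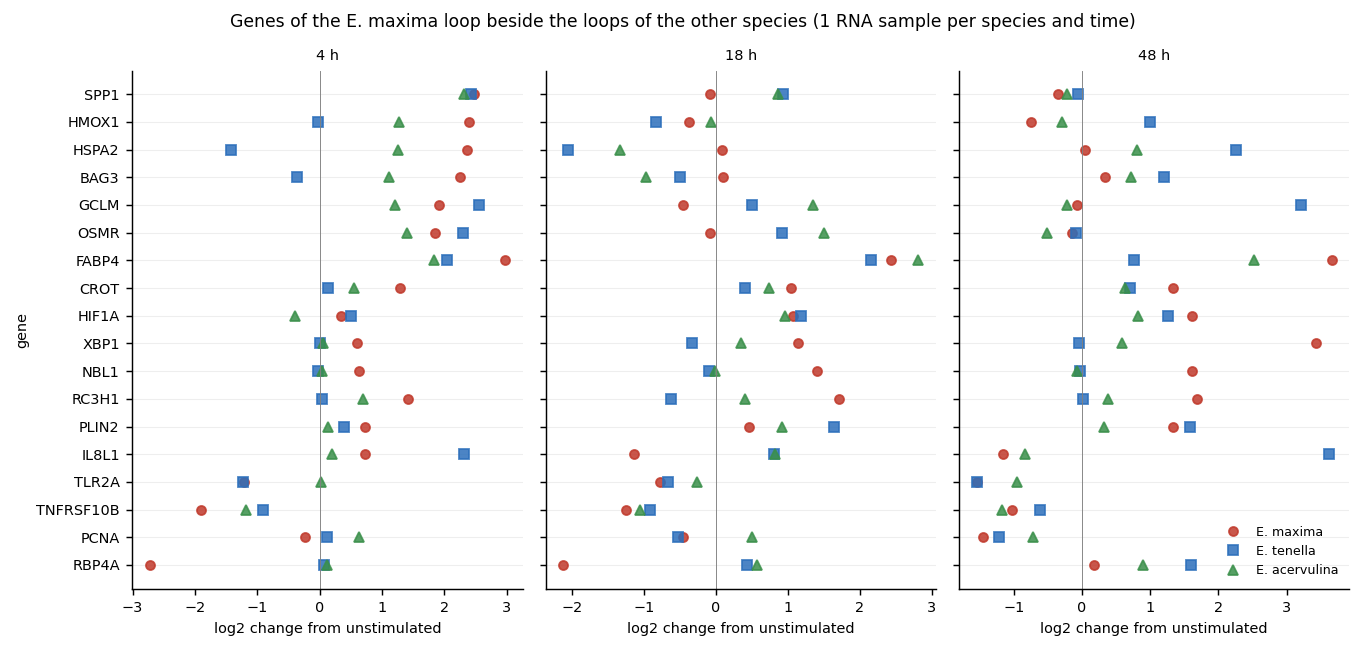
Log2 change from the unstimulated RNA of the same loop (x axis) at 4, 18 and 48 h for 18 genes, with E. maxima as red circles, E. tenella as blue squares and E. acervulina as green triangles, 1 RNA sample per species and time. The 3 symbols of SPP1 lie together at 4 h between 2.31 and 2.48, while HSPA2 spans -1.42 to 2.36 at 4 h.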

How the data were processed

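The authors deposited 1 log ratio per spot and array, taken as log2. The sources used here state no background correction, normalization, base or numerator, and the deposited log2 values were used without further centring. Precision is limited by the number of arrays, by the spots behind a gene and by 1 RNA per time. Array medians lay between 0.00 and 0.11, and 5.71% to 13.6% of the 14718 rows were missing on an array. The platform annotation gave 1 symbol to 9066 rows, several to 3 and none to 5649. Rows of 1 symbol were averaged, and 2227 symbols matched a chicken RefSeq gene ID.

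Changes were solved by least squares (numpy 2.4.6, Python 3.11.15), in which a constant dye effect cancels. The robust spread of the loop sum gave the array error. Limma 3.58.1 in R 4.3.3 tested array error and species differences over features measured on all 12 arrays, with Benjamini-Hochberg adjustment and two-sided p-values. Scripts were tested on simulated data.

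The genes, lists and tests were chosen with earlier results of these data known. Named genes are, per time, the 12 highest and 12 lowest called, those called at all times, the extremes between times, up to 6 called per list and the 6 with the lowest p of the species test. Others are named to complete a list or comparison and were chosen after their values were seen. Alternatives covered centring, scaling, row averaging, missing values, thresholds, the sign of 1 array, spots and each array left out.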

Additional observations from a re-analysis of the deposited data

How the results depend on the processing

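No paired analysis was possible because each array is the only one of its kind, with 1 replicate. With the ratios read the other way every value changes sign and total counts stay. Called genes numbered 82, 45 and 101 at 4, 18 and 48 h, and 50, 6 and 83 from 4 to 18 h, 18 to 48 h and 4 to 48 h. A threshold of 1.5 left 17, 8 and 20 at 4, 18 and 48 h, and scaling the arrays to one spread left 51 at 4 h. With 2 or more spots per array and a change of at least 2 times its spot error, 29 were left at 18 h.

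With the 48 h over 18 h array turned, 169 genes were called at 18 h, 38 at 48 h and 37 from 18 to 48 h, of which 39 and 36 were shared with the calls as labelled at 18 and 48 h. With the dye effect subtracted as well, the counts were 127 and 49, then 15 from 18 to 48 h and 52 from 4 to 48 h. Turning that array reversed 6 of 149 values of named genes: the changes from 18 to 48 h of ABCE1 (-0.64), FABP4 (-0.85), ITGA11 (-0.29), RBP4A (-0.89) and XBP1 (-0.40), and the change of RBP4A at 18 h (0.011). A further 59 of the 149 moved by more than the error. No value of a named gene reversed under centring, scaling, medians of rows or complete rows. Of these values, 12 of 149 moved under scaling, 15 of 149 with medians of rows and 28 of 141 with complete rows. With 1 array left out, 258 of 596 moved and no value reversed. That setting cannot test the direction of a called change. It leaves a single path for each change, and a call already required both paths to have the same sign.

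With 1 array left out the loop is an open chain, the dye effect no longer cancels and the path rule cannot be applied. Then 134 to 309 genes passed the fold at 4 h (309 without the 4 h over control array), 102 to 229 at 18 h (229 without either array that holds the 48 h RNA), 108 to 456 at 48 h (456 without the control over 48 h array), 95 to 246 from 4 to 18 h (246 without the 18 h over 4 h array), 31 to 247 from 18 to 48 h (247 without the 48 h over 18 h array) and 177 to 246 from 4 to 48 h (246 without either array that holds the control).

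The array-error test passed 137 features at 4 h and 160 at 48 h, and 0 and 0 with the 4 arrays alone and no dye term. The species test passed 0 features, 2 with 3 of 4 arrays per loop admitted, and 1 with an interaction term at 4 h. Subtracting the shared dye effect moved the error of 1 array from 0.28 to 0.15. The causes were not tested.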

Other observations

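The array also holds 3859 rows with no gene symbol and a value on all 4 E. maxima arrays, each a single spot. A clone may thus count more than once, and these shares are not directly comparable with those of genes averaged over spots. By the same rule, 187 of them (4.85%) were called at 4 h, 105 higher and 82 lower. At 18 h 146 (3.78%) were called, 101 higher and 45 lower, and at 48 h 223 (5.78%), 125 higher and 98 lower. Their changes ran from -4.65 to 3.72 at 4 h and from -3.70 to 4.02 at 48 h.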
